A study of Homo sapiens with 96 samples.

Results

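Translational efficiency was compared between the last and the first hours of 1 circadian day in U2-OS cells treated with siRNA against Bmal1. Efficiency is the number of ribosome footprints of a gene relative to its total RNA. Of the 96 libraries of the series, 24 belong to this comparison: the footprint and total RNA libraries of knockdown cells at circadian times CT00, CT02 and CT04 (early) and at CT18, CT20 and CT22 (late), in 2 replicates. Each footprint library was divided by the total RNA library of the same time and replicate, which gave 12 of the 48 ratios of the series, 6 early and 6 late. U2-OS is a human osteosarcoma line, and the cells used carry luciferase under the Per2 promoter. All of them were synchronised with 0.1 µM dexamethasone, a glucocorticoid that sets clocks to a common phase. Collection began 24.5 h later and went on every 2 h, with cycloheximide at 100 µg/mL to hold ribosomes on the mRNA. Knockdown plates held 560000 cells at seeding, and the siRNA mix against Bmal1, whose gene the files list as ARNTL, was given at 120 pmol. Wild-type cells, used here only for comparison over the same hours, were plated in larger numbers without siRNA, and the labels name no control siRNA. The knockdown therefore cannot be told apart from transfection and seeding density. All windows are hours of a single day, so a late value cannot be told apart from longer time after synchronisation.

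Ribosome profiling sequences the stretch of mRNA that each ribosome shields from nuclease. A gene's footprints rise when its mRNA becomes more abundant, and also when each mRNA carries more ribosomes, and the ratio to total RNA separates the latter. The best known class of mRNAs regulated as a group in this way begins with a run of pyrimidines at the 5′ end, the terminal oligopyrimidine (TOP) tract. These mRNAs encode ribosomal proteins and elongation factors and respond to growth signals through mTOR. BMAL1 pairs with CLOCK to drive clock genes, and clock output has been linked to the control of translation.

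The early and late knockdown libraries held 2.60 to 4.10 M footprint reads. Total RNA libraries held 13.6 to 19.3 M reads, except that of CT18 in replicate 2, with 2.56 M. That library also spread most among genes with a mean footprint level of at least 5 log2 CPM (reads of a gene scaled to the size of its library). Efficiency deviated from the gene's mean over all 12 ratios with an SD of 0.308 there and of 0.124 to 0.196 in the other 11 ratios. The efficiency calls and several list medians are given with and without it. ARNTL total RNA was 3.83 to 6.49 CPM in the 12 libraries and its footprints were 0 to 3 reads, so its efficiency was not tested. The 9 mesenchymal markers summed to 5062 to 5513 CPM of total RNA early and 5313 to 5641 CPM late, led by VIM. The 9 epithelial markers summed to 7.89 to 10.2 CPM early and 10.5 to 15.3 CPM late, and the 8 blood markers to 13.5 to 17.8 and 10.9 to 14.5 CPM, most of it CD68, which cells of many types express. The 8 neuronal markers summed to 439 to 525 CPM early and 493 to 549 CPM late, led by TUBB3. The part of these levels in the results was not tested.

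In knockdown cells the footprints of a gene mostly changed with its RNA, and efficiency passed the test for 1 gene. Of 10963 genes tested, total RNA was called for 3547 (32.4%) and footprints for 2298 (21%). Total RNA was higher late for 1562 (14.2%) and lower for 1985 (18.1%), and footprints were higher for 1100 (10%) and lower for 1198 (10.9%), at a Benjamini-Hochberg adjusted p of at most 0.05 in limma. Efficiency was higher late for 1 gene (0.00912%) and lower for 0 (0%). At an unadjusted p under 0.05 there were 524 genes, 4.78% of those tested. On the recovered reads, edgeR's quasi-likelihood test also called 1 gene, and DESeq2 called 5, which were BC009321, MT1E, TRIB2 and SLC6A8 higher and CEP192 lower. Without CT18 of replicate 2, limma called 3 of 10935 genes, BC009321 and MT1E higher and CEP192 lower.

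**Figure D1:**
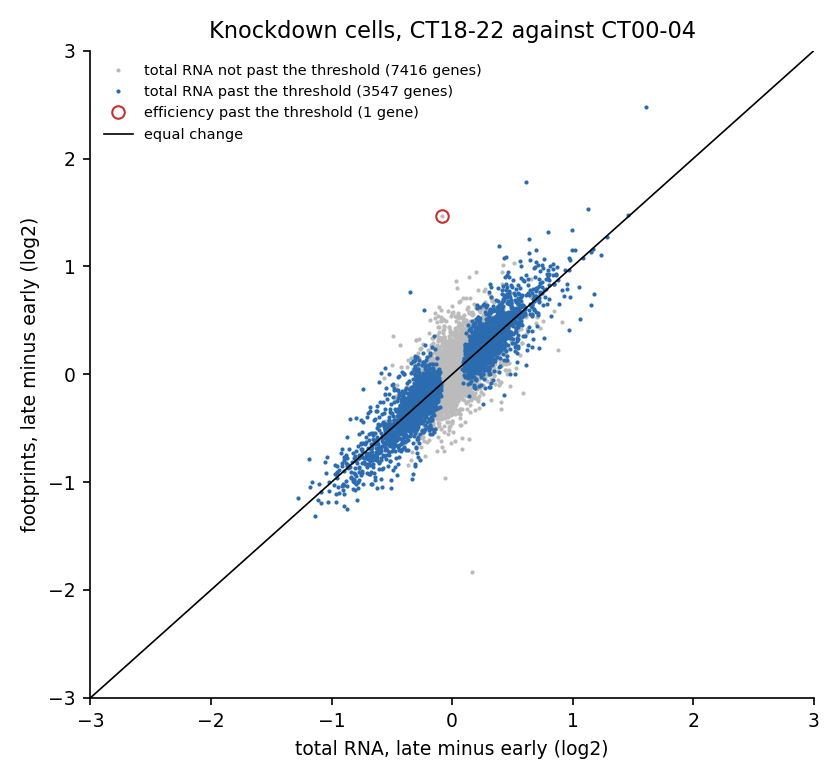
Each point is 1 of 10963 genes in knockdown cells, with the late minus early change in total RNA on the x axis and in footprints on the y axis (both log2). Genes past the threshold in total RNA (3547, blue) lie along the line of equal change, and the circled gene, BC009321, is the 1 gene past the threshold in efficiency.

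The change in footprints followed the change in total RNA across genes, with Pearson's r = 0.837 over 10963 genes, which are not independent replicates. Of the 3547 genes called in total RNA, footprints moved in the same direction for 3432 (96.8%). Footprints were themselves called in that direction for 1807 of them and in the opposite direction for 0. The genes called higher in RNA had median late minus early differences of 0.28 in RNA and 0.29 in footprints (log2), and those called lower had −0.26 and −0.25. The 28 genes called in RNA at 2-fold or more had the same sign in footprints in 28 cases, and 27 passed the footprint test. Of these 28, 6 (21.4%) had an unadjusted efficiency p under 0.05 in limma, against 4.78% of all tested genes.

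Single genes show how both layers moved. The largest called RNA changes were picked after their values were seen, 8 in each direction, and some of them are given here. CCL2, a chemokine that attracts monocytes, had 6.19 to 9.26 CPM of total RNA early (median 7.0) and 15.4 to 27.1 CPM late (median 20.0), and 10.5 to 14.3 footprint CPM early (median 12.2) and 27.0 to 50.7 late (median 30.8). Neither assay's early and late libraries overlapped. Its RNA rose by 1.46 ± 0.13 (log2 ± SE, adjusted p = 4.6e-07 in limma) and its footprints by 1.47 ± 0.14 (adjusted p = 3.78e-09), which left an efficiency difference of 0.01 ± 0.12. MMP3, a secreted protease of the extracellular matrix, fell in RNA by 1.09 ± 0.17 and in footprints by 1.09 ± 0.20, with an efficiency difference of 0.00 ± 0.07. ZNF367, a zinc finger protein, fell by 1.11 ± 0.07 and 1.17 ± 0.13. IGFBP5, which binds insulin-like growth factors, rose by 1.17 ± 0.11 and 1.16 ± 0.14. SYT12, a synaptotagmin, was an uneven case: its RNA rose by 1.61 ± 0.13 and its footprints by 2.48 ± 0.41, from 3 to 22 reads early to 31 to 62 late, but the efficiency difference of 0.87 ± 0.30 did not pass (adjusted p = 0.917 in limma).

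The precision of the efficiency differences depended on the footprint level. The median SE of an efficiency difference was 0.114 and the median half-width of its 95% interval 0.234 (log2). For 98.3% of genes the interval lay within 2-fold in both directions, and for 85.4% within 1.5-fold. Below 4 log2 footprint CPM, which held 2929 genes, 52.2% were within 1.5-fold, against 98.3% of the 2894 genes at 6 to 8 log2 CPM. Over all genes the efficiency difference ran from −0.38 at the first percentile to 0.44 at the 99th, compared with −0.73 to 0.66 for total RNA and −0.82 to 0.76 for footprints.

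BC009321 was the gene whose efficiency passed the test. The files give it only under this label, which matched no RefSeq gene, so its product is not known here. Its ratio of footprints to total RNA was 0.183, 0.207 and 0.143 at CT00, CT02 and CT04 in replicate 1 and 0.291, 0.230 and 0.337 in replicate 2. At CT18, CT20 and CT22 it was 0.649, 0.486 and 0.533 in replicate 1 and 0.934, 0.603 and 0.796 in replicate 2. Each late ratio lay above each early ratio. Its efficiency rose by 1.54 ± 0.25 (log2 ± SE, 95% interval 1.03 to 2.06, adjusted p = 0.0183 in limma), by 1.65 in replicate 1 and 1.44 in replicate 2, and by 1.44 without CT18 of replicate 2 (adjusted p = 0.0213). The rise was in footprints, which went from 5 to 10 reads per library to 16 to 40 (1.46 ± 0.23, adjusted p = 2.22e-05), while total RNA differed by −0.08 ± 0.10 (adjusted p = 0.589). In the hours between, the ratio was 0.212 to 0.549 at CT06 to CT10 (median 0.379) and 0.357 to 0.503 at CT12 to CT16 (median 0.469), medians that lie between those of the early (0.218) and late (0.626) windows. The call was lost when any of 7 of the 12 library pairs was left out (CT00, CT02, CT04 or CT18 of replicate 1, or CT02, CT20 or CT22 of replicate 2), with adjusted p of 0.0534 to 0.143 and a difference of 1.41 to 1.56. In wild-type cells, whose libraries were scaled separately, the ratio was 0.855 to 1.30 early and 0.929 to 1.58 late. Each knockdown early ratio was under each wild-type ratio, a comparison across the 2 scalings. The difference between treatments in the late minus early change was 1.39 ± 0.29 (adjusted p = 0.0686 in limma) and did not pass.

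The other 9 genes nearest to a call are given as values only, since none passed in limma over all 12 ratios. They were picked by smallest p on these same ratios, so windows without overlap are in part a result of that choice. The share of all tested genes without overlap was not counted. DESeq2 called 4 of them. TRIB2, a pseudokinase that acts in protein degradation, had ratios of 0.205 to 0.279 early (median 0.242) and 0.304 to 0.450 late (median 0.379), which did not overlap. Its RNA rose by 0.45 ± 0.05 and its footprints by 1.08 ± 0.13, and the efficiency difference was 0.63 ± 0.13 (adjusted p = 0.314 in limma, 0.0104 in DESeq2). MT1E, a metallothionein that binds zinc, had ratios of 0.0230 to 0.0429 early (median 0.0326) and 0.0417 to 0.0675 late (median 0.0577). Its lowest late ratios, CT20 of replicate 1 and CT18 of replicate 2, lay just under the highest early ratio. Its footprints rose by 0.80 ± 0.15 while RNA differed by 0.04 ± 0.05. The efficiency difference was 0.76 ± 0.15 (adjusted p = 0.324 in limma, 0.0161 without CT18 of replicate 2, 0.00128 in DESeq2), and metallothioneins have close paralogs whose reads may be shared. SLC6A8, the creatine transporter, had ratios of 0.178 to 0.249 early and 0.263 to 0.328 late, with no overlap, and an efficiency difference of 0.49 ± 0.11 (adjusted p = 0.353 in limma, 0.0310 in DESeq2). TIMM8B, a carrier of proteins into the inner mitochondrial membrane, had ratios of 0.514 to 0.575 early and 0.559 to 1.06 late and a difference of 0.44 ± 0.11. Its difference fell to 0.33 without CT18 of replicate 2, which held 222 reads of its RNA.

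On the low side, INCENP, the scaffold of the chromosomal passenger complex, had ratios of 2.27 to 2.58 early (median 2.43) and 1.61 to 2.09 late (median 2.01), with no overlap. Its efficiency difference was −0.33 ± 0.07 (adjusted p = 0.324 in limma), on top of a fall in RNA of 0.44 ± 0.12, and its footprints fell by 0.77 ± 0.08. STIL, which is needed to duplicate centrioles, had ratios of 1.18 to 1.40 early and 0.914 to 1.18 late and a difference of −0.32 ± 0.08, its highest late ratio just under its lowest early one. RECQL4, a DNA helicase, had ratios of 0.555 to 0.792 early and 0.418 to 0.548 late and a difference of −0.38 ± 0.10. CEP192, a scaffold of the centrosome, had ratios of 0.441 to 0.540 early (median 0.509) and 0.315 to 0.495 late (median 0.380). Its 1 late ratio that overlapped the early window was CT18 of replicate 2, at 0.495. The difference was −0.39 ± 0.09 (adjusted p = 0.367 in limma, 0.0161 without that pair, 0.0494 in DESeq2). UACA had ratios of 1.04 to 1.19 early and 0.626 to 1.01 late and a difference of −0.45 ± 0.10 (adjusted p = 0.353). PDZD7, named after its values were seen, had the lowest difference of all tested genes, −1.99 ± 0.73, at a mean of 1.12 CPM of total RNA early and 1.29 CPM late, and was not called (adjusted p = 0.95).

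**Figure D2:**
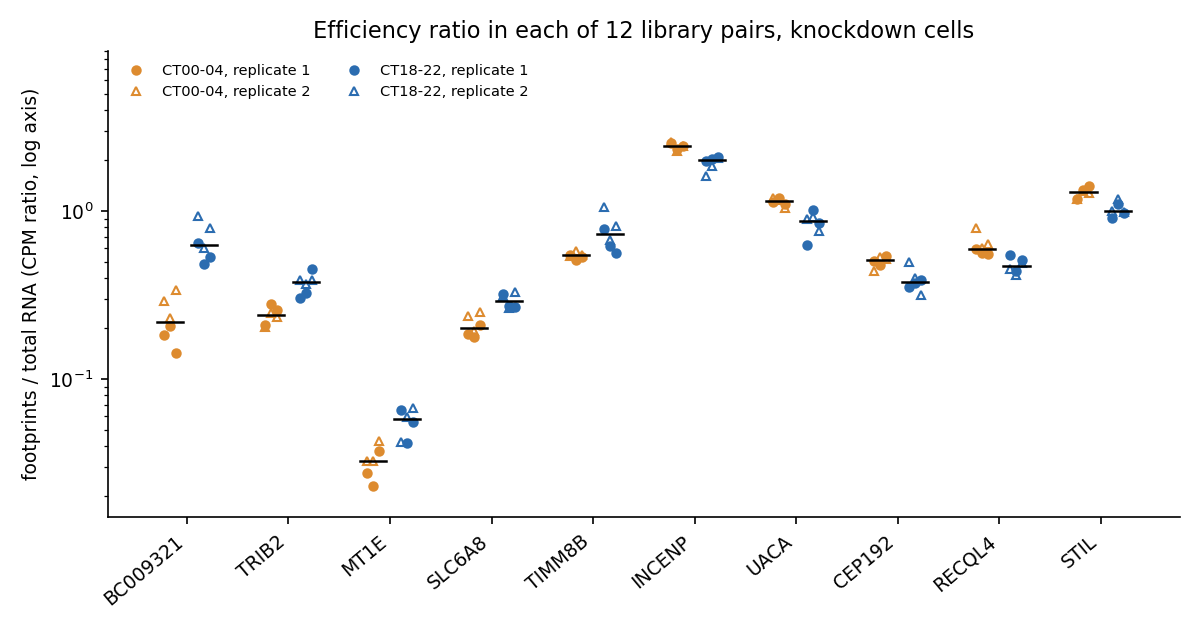
The y axis (log scale) is the ratio of footprint to total RNA CPM in each of the 12 knockdown library pairs for the 10 genes with the smallest p, 5 in each direction. Points are single pairs, filled for replicate 1 and open for replicate 2, and bars are medians. BC009321 goes from a median of 0.218 to 0.626, and the remaining 9 genes, which did not pass in limma over all 12 ratios, have smaller differences.

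Of 22 clock genes tested, 0 were called in efficiency. The list had a median efficiency difference of −0.04 with 13 below 0, from −0.43 to 0.30, and 0 members at an unadjusted p under 0.05. Without CT18 of replicate 2 the median was 0.01 with 11 below 0. In RNA 4 rose and 3 fell, and in footprints 5 rose and 2 fell, while over all tested genes 32.4% were called in RNA and 21% in footprints, so the RNA count is near that of all genes. WEE1, a kinase that holds back mitosis and a clock target, had 61.9 to 77.6 CPM of RNA early and 47.4 to 54.2 late, and 61.3 to 73.7 footprint CPM early and 34.9 to 47.3 late. The windows overlapped in neither assay. Its RNA fell by 0.49 ± 0.06 and its footprints by 0.69 ± 0.09, and its efficiency difference of −0.20 ± 0.10 was the nearest of the list to a call (adjusted p = 0.991 in limma). NR1D2, a nuclear receptor that represses ARNTL, fell in RNA by 0.38 ± 0.07 and in footprints by 0.62 ± 0.15. Its efficiency difference was −0.24 ± 0.17, −0.47 in replicate 1 and 0.00 in replicate 2. BHLHE40 and BHLHE41, repressors at E-boxes, rose in RNA by 0.55 ± 0.08 and 0.72 ± 0.26 and in footprints by 0.46 ± 0.08 and 1.01 ± 0.20. Their efficiency differences were −0.10 ± 0.07 and 0.30 ± 0.17. The kinase CSNK1E, which phosphorylates PER proteins, rose by 0.13 ± 0.05 and 0.23 ± 0.06. CSNK1D, its close relative, rose by 0.27 ± 0.08 and 0.15 ± 0.05, and its efficiency difference went from −0.12 to 0.00 without CT18 of replicate 2. PER2 rose in footprints by 0.31 ± 0.11 (adjusted p = 0.0386), with RNA at 0.17 ± 0.07 (adjusted p = 0.0663). CRY1, CRY2, CLOCK and PER3 passed in none of the 3 tests.

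Cell cycle genes fell in RNA and footprints. Of 30 genes of G2 and M phase, 22 fell in RNA and 22 in footprints and 0 rose in either, with medians of −0.49 and −0.65. Over all tested genes 18.1% fell in RNA and 10.9% in footprints. In efficiency 0 of 30 were called, but 30 of 30 differences lay below 0, from −0.27 to −0.01 with a median of −0.14, while over all tested genes 5417 of 10963 were below 0 with a median of 0.00. At an unadjusted p under 0.05, 8 of the 30 were lower, against 223 of 10963 genes. The median was −0.21 in replicate 1 (29 below 0) and −0.09 in replicate 2 (24 below 0), −0.15 without CT18 of replicate 2, and −0.17 with the deposited scaling. The per-library median of the list ran from 0.48 to 0.70 early and from 0.33 to 0.53 late (log2 ratio), so the windows overlapped. TPX2, which builds the mitotic spindle, had ratios of 1.49 to 1.91 early and 1.24 to 1.57 late and an efficiency difference of −0.24 ± 0.07 (adjusted p = 0.792 in limma), and fell by 0.48 ± 0.09 in RNA and 0.72 ± 0.12 in footprints. BUB1, a kinase of the spindle checkpoint, had ratios of 1.38 to 1.56 early and 1.25 to 1.40 late and a difference of −0.16 ± 0.06. KIF20A, a motor of cytokinesis, was at −0.18 ± 0.07. CDC25B, a phosphatase that activates CDK1, was at −0.23 ± 0.09 with RNA at 0.00 ± 0.13. In wild-type cells over the same hours, 24 of the 30 genes lay below 0 in efficiency, with a median of −0.07. The difference between treatments had a median of −0.08, above 0 for 7 of 30, with 0 called. Genes of a list share the same libraries, so their signs are not independent.

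S phase genes and histones also fell in both layers, with efficiency medians on either side of 0. Of 26 S phase genes, 24 fell in RNA (median −0.55) and 24 in footprints (median −0.60), and 0 rose, beside 18.1% and 10.9% lower over all tested genes. Efficiency had a median of −0.05 with 18 of 26 below 0 and 0 called, and of −0.07 with 20 below 0 without CT18 of replicate 2. CDC45, a subunit of the replicative helicase, had 97.2 to 116 CPM of RNA early and 47.5 to 67.6 late, and fell by 0.94 ± 0.07 in RNA and 1.10 ± 0.08 in footprints, with an efficiency difference of −0.16 ± 0.08. RRM1, the large subunit of ribonucleotide reductase, fell by 0.56 ± 0.06 and 0.68 ± 0.07, with −0.13 ± 0.06 in efficiency. Of 12 histone genes, 11 fell in RNA (median −0.87) and 11 in footprints (median −0.73), beside the same 18.1% and 10.9%. Their efficiency differences lay above 0 in 11 of 12, with a median of 0.08, 0.13 in replicate 1 and 0.01 in replicate 2, and 0 were called. Without CT18 of replicate 2 the median was 0.11. HIST1H1C, a linker histone, had ratios of 1.81 to 2.11 early and 2.12 to 2.81 late, with no overlap. Its RNA fell by 0.91 ± 0.07, its footprints by 0.69 ± 0.08, and its efficiency difference was 0.22 ± 0.06 (adjusted p = 0.736 in limma). Histone genes have near-identical copies, so the values of single members are uncertain. In wild-type cells over the same hours, 0 of 12 histone genes lay below 0 in efficiency, with a median of 0.17. The difference between treatments had a median of −0.06, above 0 for 4 of 12, with 0 called.

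**Figure D3:**
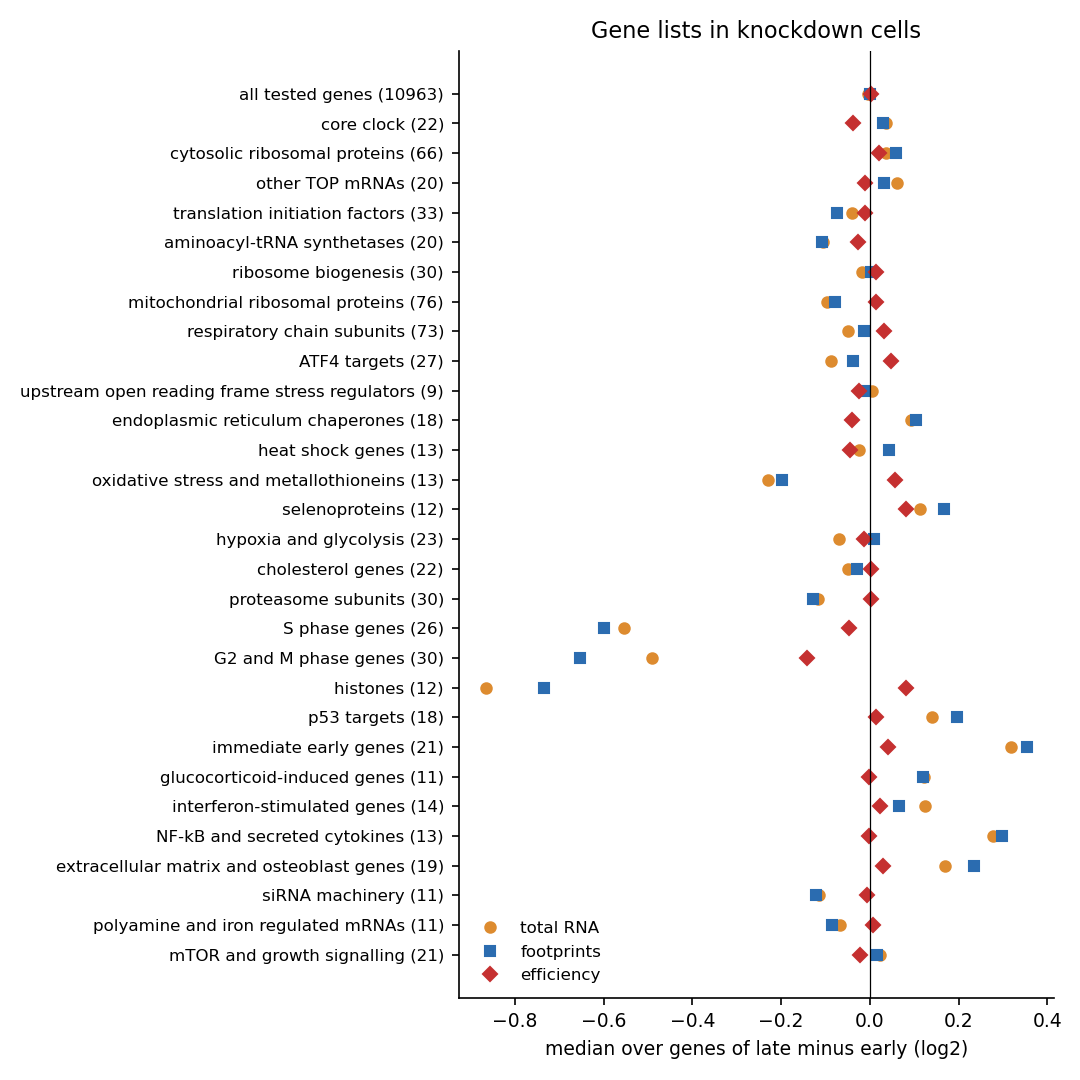
Median late minus early difference (log2, x axis) in total RNA, footprints and efficiency of knockdown cells for all tested genes and for each list with at least 9 tested genes (number in brackets). Lists spread from −0.87 to 0.32 in RNA, and their efficiency medians lie between −0.14 (G2 and M phase) and 0.08.

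Over all tested genes 14.2% rose and 18.1% fell in RNA, and 10% rose and 10.9% fell in footprints, against which the counts for induced, secretory and proteasome genes are to be read. Of 21 immediate early genes, the fast transcription response to stimuli, 13 rose in RNA and 13 in footprints (medians 0.32 and 0.35). JUNB, an AP-1 subunit, rose by 0.79 ± 0.11 and 0.93 ± 0.17. The list's efficiency median of 0.04 joined 0.17 in replicate 1, where 0 of 21 were below 0, with −0.16 in replicate 2, where 17 were. Of 19 genes of the extracellular matrix and osteoblasts, 11 rose and 1 fell in RNA and 12 rose and 2 fell in footprints, among them THBS1, an adhesive matrix protein (0.70 ± 0.10 and 0.80 ± 0.10), and SERPINH1, the collagen chaperone (0.43 ± 0.04 and 0.53 ± 0.07). Of 18 p53 targets, 8 rose in RNA and 9 in footprints. TP53INP1, a stress protein, rose by 0.41 ± 0.06 and 0.74 ± 0.10, with an efficiency difference of 0.33 ± 0.11 (adjusted p = 0.917 in limma). Of 18 chaperones of the endoplasmic reticulum, 7 rose in RNA and 4 in footprints. HSPA5, the main one, rose by 0.58 ± 0.07 and 0.46 ± 0.05, at −0.12 ± 0.06 in efficiency. CRYAB, a small heat shock protein, rose by 0.52 ± 0.05 in RNA and 0.25 ± 0.05 in footprints, with ratios of 2.55 to 3.11 early and 2.11 to 2.77 late and a difference of −0.26 ± 0.07 (adjusted p = 0.57). Of 30 proteasome subunits, 13 fell in RNA and 12 in footprints, with an efficiency median of 0.00, or −0.03 without CT18 of replicate 2.

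Further gene lists gave no efficiency call in knockdown cells either. Among 9 stress regulators with upstream reading frames, 0 were called in efficiency and the median was −0.02. ATF4, the stress factor whose own translation is set by such frames, was at 0.25 ± 0.16. Of its 27 tested target genes, 6 rose and 7 fell in RNA, and 6 rose and 6 fell in footprints, beside 32.4% called in RNA and 21% in footprints over all tested genes. CTH, which makes cysteine, had ratios of 2.49 to 4.01 early and 1.87 to 2.99 late and a difference of −0.59 ± 0.15 (adjusted p = 0.561 in limma), with 14 to 98 reads of RNA per library. Among 12 selenoproteins the efficiency median was 0.08 with 10 above 0, and GPX1, a glutathione peroxidase, rose in RNA by 0.18 ± 0.05 and in footprints by 0.35 ± 0.08. OAZ1, the antizyme made by ribosomal frameshifting, was at 0.17 ± 0.07 and ODC1, the ornithine decarboxylase that it inhibits, at 0.06 ± 0.06, while ODC1 fell by 0.41 ± 0.04 in RNA and 0.34 ± 0.06 in footprints. AGO2, the nuclease that carries siRNAs, fell in RNA by 0.17 ± 0.05, with an efficiency difference of 0.15 ± 0.07 (adjusted p = 0.991). Efficiency medians of 33 initiation factors, 20 aminoacyl-tRNA synthetases, 30 ribosome biogenesis genes, 76 mitochondrial ribosomal proteins and 73 respiratory chain subunits lay between −0.03 and 0.03, with 0 calls in each list. Without CT18 of replicate 2 the median of the respiratory chain subunits went from 0.03 to 0.00.

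Of 66 ribosomal protein mRNAs, 0 were called in efficiency in knockdown cells and 19 were called lower in wild-type cells over the same hours. Over all genes tested, 0.00912% were called in knockdown cells and 0.425% were called lower in wild-type cells. The 5′ ends of 7 genes are shown because the tract at the start is the feature that defines this class. They were chosen by the smallest wild-type adjusted p among ribosomal protein and other TOP genes with a tract. Each run gives the first 20 bases from the RefSeq start on the strand of the gene (GRCh38.p14), with the tract in capitals.
RPL28 (chr19:55385932-55385951, plus strand): CTCTTTCCgtctcaggtcgc
RPS13 (chr11:17077648-17077667, minus strand): CCTTTCgttgcctgatcgcc
RPS23 (chr5:82278335-82278354, minus strand): CTCTTTCgctcaggcccgtg
RPL13 (chr16:89560682-89560701, plus strand): CTTTCCgctcggctgttttc
RPS12 (chr6:132814569-132814588, plus strand): CTCTTTCCCTgccgccgccg
GNB2L1 (chr5:181243887-181243906, minus strand): CTCTCTTTCactgcaaggcg
RPLP0 (chr12:120201092-120201111, minus strand): CCTTCTCTCgccaggcgtcc

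The runs hold 6 to 10 pyrimidines before the first purine. A tract was counted where the first base was C and at least the first 5 bases were all C or T, read on the strand of the gene only. It was present in 4.07% of the 35116 RefSeq starts listed, in 7.64% of the 9031 tested genes that matched a start (82.4% of those tested), and in 40 of 52 ribosomal protein genes (76.9%). A match describes the listed start and not the ends of the mRNAs in these cells.

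In knockdown cells RPS23, a protein of the decoding centre, had ratios of 0.501 to 0.622 early and 0.486 to 0.720 late, with a median of 0.581 in both windows. In wild-type cells its ratios were 0.819 to 1.10 early (median 0.977) and 0.632 to 0.736 late (median 0.685), with no overlap. RPS13 had 0.329 to 0.447 early and 0.286 to 0.447 late in knockdown cells, and RPLP0, part of the ribosomal stalk, had 0.0411 to 0.0555 and 0.0390 to 0.0566. RPL28 had 1.06 to 1.51 and 0.761 to 1.24 and a knockdown difference of −0.18 ± 0.11, the lowest of the 7. GNB2L1, the ribosomal scaffold RACK1, had 0.992 to 1.21 and 0.868 to 1.12. The knockdown windows overlapped for each of these genes.

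Of 66 cytosolic ribosomal proteins tested in knockdown cells, 0 were called in efficiency, 42 lay above 0 and 24 below, and the median was 0.02 (−0.05 in replicate 1 and 0.12 in replicate 2). Without CT18 of replicate 2 the median was 0.00 and 34 lay above 0. With the deposited scaling the median was 0.00 and 31 lay above 0. In RNA 5 rose and in footprints 8, and 0 fell, while over all tested genes 14.2% rose in RNA and 10% in footprints. In wild-type cells over the same hours 66 of 66 lay below 0 with a median of −0.44, and 19 fell in efficiency. Over all genes tested in wild-type cells 5164 of 11052 lay below 0 and 47 (0.425%) were called lower. For the list of 20 other TOP mRNAs, such as EEF1A1 and NPM1, the median was −0.01 with 11 below 0 in knockdown cells, and −0.44 with 20 below 0 and 8 called lower in wild-type cells. Genes with a tract but on neither list, 638 in all, had a median of 0.01 in knockdown cells and −0.02 in wild-type cells. Ribosomal proteins have many pseudogenes, so the values of single members are uncertain.

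Wild-type cells had 60 of 11052 genes called in efficiency (0.543%), 13 higher (0.118%) and 47 lower (0.425%), or 7 higher and 63 lower with the deposited scaling. The 47 had wild-type differences of −0.81 to −0.26. In knockdown cells the same 47 genes had differences of −0.18 to 0.15 with a median of −0.02, 29 below 0 and 18 above. The 95% interval of the knockdown difference held 0 for 47 of 47. The 47 were chosen by their wild-type ratios, so the wild-type sizes are a description, and the difference between treatments is given by its own test. The 13 genes that rose in wild-type cells had a median of 0.06 in knockdown cells over the 12 measured there.

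**Figure D4:**
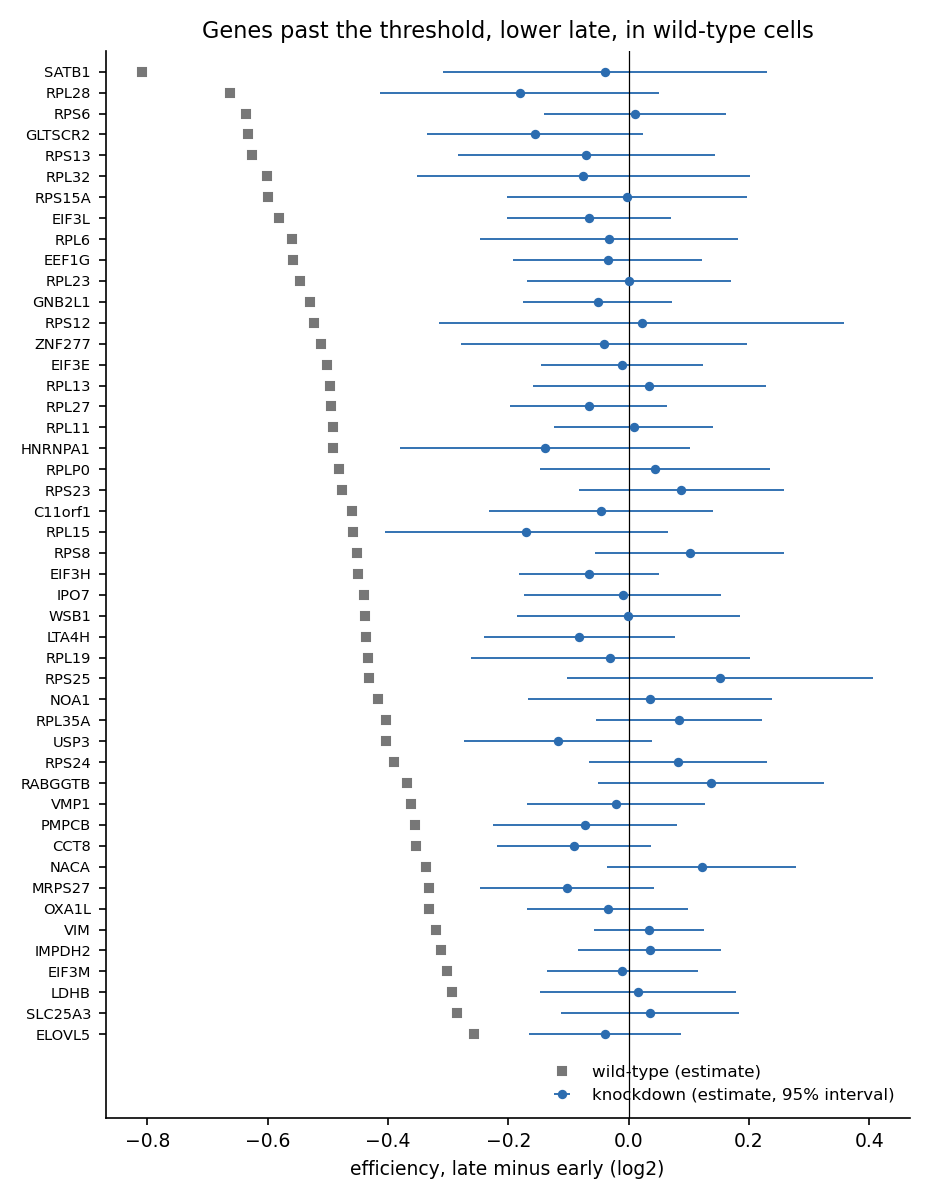
Late minus early difference in efficiency (log2, x axis) of the 47 genes that were lower late in wild-type cells, as the wild-type estimate (squares) and the knockdown estimate with its 95% interval (circles and lines). The knockdown intervals hold 0 for 47 of 47 genes. The wild-type estimates, by which the genes were chosen, run from −0.81 to −0.26 and are drawn without their error.

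The difference between treatments was itself tested in 1 model over both, and passed for 1 of 11380 genes (0.00879%). That gene was VIM, the intermediate filament protein of mesenchymal cells, whose mRNA is on the list of other TOP mRNAs. Its ratios were 2.89 to 3.43 early and 3.11 to 3.48 late in knockdown cells, and 3.66 to 4.57 early and 3.14 to 3.56 late in wild-type cells. The efficiency difference was 0.03 ± 0.04 in knockdown cells and −0.32 in wild-type cells, and their difference was 0.36 ± 0.07 (adjusted p = 0.0432 in limma and 0.0539 with median-ratio scaling). The call was also lost without replicate 1 (adjusted p = 0.104) and without replicate 2 (0.355). RPS23, at 0.57, had the same adjusted p as BC009321 and EIF3E, 0.0686. Over the 66 ribosomal proteins the difference had a median of 0.50, above 0 for 66 of 66 against 5598 of 11380 genes, with 0 called. At an unadjusted p under 0.05 there were 600 genes, 5.27% of those tested.

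The efficiency differences of the 2 knockdown replicates did not run together across genes. Pearson's r between them was −0.127 over 10963 genes and −0.268 over the 6009 genes of at least 5 log2 footprint CPM, against 0.580 for the footprint differences and 0.757 for total RNA. Without CT18 of both replicates it was 0.003. Ratios of replicate 1 alone, 3 against 3, called 37 genes higher and 13 lower. In replicate 2 the 37 had a median of −0.15, with 10 above 0, and the 13 a median of −0.09, with 8 below 0. Replicate 2 alone called 0 genes.

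**Figure D5:**
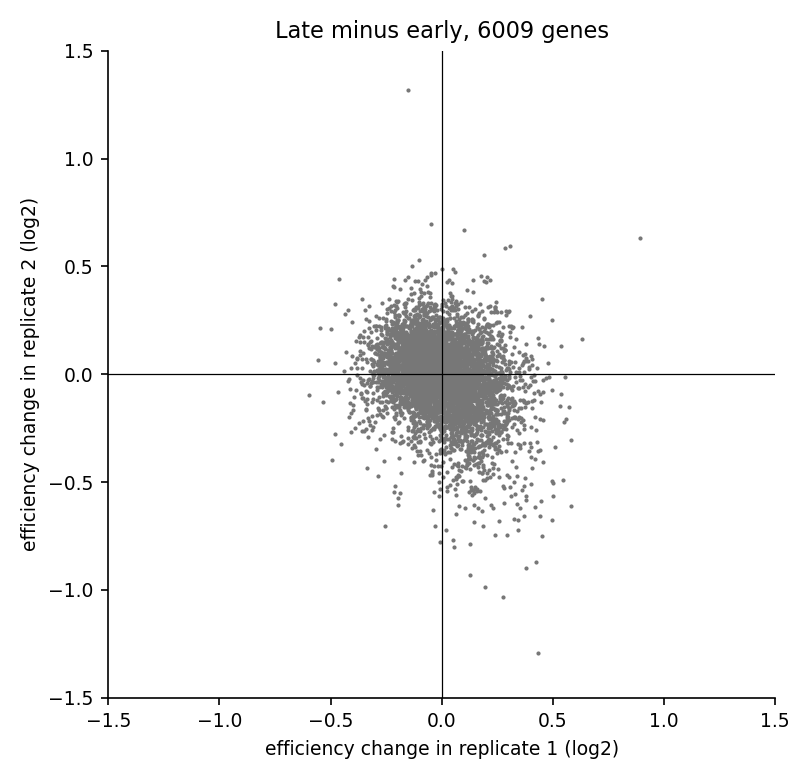
Efficiency difference, late minus early (log2), in replicate 1 (x axis) against replicate 2 (y axis) for the 6009 genes with a mean of at least 5 log2 footprint CPM in knockdown cells. Each point is a gene, and the cloud leans from upper left to lower right (r = −0.268).

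In the middle of the day, with CT12 to CT16 set against CT06 to CT10 in knockdown cells, efficiency passed for 0 of 11045 genes (0%) in limma, and 563 (5.1%) had an unadjusted p under 0.05. BC009321 was at 0.32 ± 0.23 there and TRIB2 at 0.14 ± 0.13. MT1E was at 0.34 ± 0.12 and TIMM8B at 0.29 ± 0.08, the same sign as between early and late hours, each with an adjusted p of 0.909. CEP192 was at 0.11 ± 0.07 and STIL at 0.01 ± 0.06. As log2 ratios, RECQL4 ran from −1.01 to −0.79 at CT06 to CT10 and from −1.32 to −0.83 at CT12 to CT16. INCENP ran from 1.00 to 1.37 and from 0.96 to 1.34 over the same hours. UACA ran from −0.16 to 0.44 and from 0.02 to 0.31, and SLC6A8 from −2.21 to −1.88 and from −2.18 to −1.82. The 30 genes of G2 and M phase had a median of −0.01, with 17 below 0.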

How the data were processed

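Total RNA and ribosome footprints were sequenced at 12 times in 2 replicates per treatment. The tools named are STAR 2.3.0e, HTSeq 0.5.4p1 and DESeq2, with the build GRCh37 (hg19), per the submitters' processing notes. How counting treated strand is not given in the sources used here, so overlapping genes are uncertain. The deposited values are a signal: per library, the authors scaled each gene's reads by a single factor. In the files 100% of the values were whole multiples of 1 step per library within 0.001 read, and these whole reads were recovered and used. A floor of 3 reads and the 95% intervals cover counting error and the spread between libraries only.

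TMM factors were computed separately for footprints and total RNA (edgeR 4.0.16). Genes with a count of 10 or more by filterByExpr in both assays were kept. Efficiency was log2 of footprint CPM plus 0.25 minus log2 of total RNA CPM plus 0.25, which understates changes of weakly expressed genes. Late and early ratios, 6 against 6, were compared with limma 3.58.1 (R 4.3.3; robust, with a variance trend). edgeR's quasi-likelihood test and DESeq2 1.42.0 on the recovered reads were alternatives. The procedure was run on simulated data, with footprints and total RNA drawn independently and total RNA constant over the hours. No result here rests on that run. Adjusted p-values come from limma except where a tool is given. The labels do not state that the replicates came from separate cultures, so the p-values may reflect technical spread only.

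Genes were named by rule: the 15 largest efficiency calls in each direction with a mean of at least 2 log2 CPM in both assays and the same sign in both replicates, filled to 5 by smallest p where fewer passed; the clock genes; up to 4 genes of smallest p in each other list; and calls of the difference between treatments, up to 6 in each direction. The comparison, the lists and the rule were chosen with earlier results of these data known. Genes picked by p or by size of change tend to have separate windows through that choice. The fit of wild-type hours alone, its alternatives and the largest RNA changes were added after the data were seen. Of 19438 symbols, 18668 matched a RefSeq gene. No genome of the files' build was used, and start sequences come from RefSeq on GRCh38.p14.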

Additional observations from a re-analysis of the deposited data

Results flagged for a closer look

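Among 70 groups of 6 values, a single value stood far from the other 5 in 10; about 1 in 20 groups does so by chance. In total RNA depth these were CT00 of replicate 1 among the early libraries, at 13.6 M reads, and CT18 of replicate 2 among the late ones, at 2.56 M. In the spread of efficiency around each gene's mean over early and late ratios they were CT00 of replicate 2, with an SD of 0.196, and CT18 of replicate 2, with an SD of 0.308.

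The other 6 are ratios of single genes. At CT00 of replicate 2, RECQL4 was at 0.792 (0.555 to 0.641 in the other 5 early ratios), the ubiquitin ligase subunit BTRC at 1.21 (1.35 to 1.41) and its relative FBXW11 at 0.235 (0.306 to 0.347). At CT18 of replicate 2, CSNK1D was at 1.44 (2.15 to 2.47 in the other late ratios). NR1D2 was at 0.620 at CT20 of replicate 2 (0.360 to 0.441), and BHLHE41 at 2.26 at CT04 of replicate 1 (1.64 to 1.79). The early values of RECQL4 do not overlap the late ones with or without this ratio. The part of depth in these values was not tested.

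The late minus early change in efficiency differed between treatments for VIM, by 0.358 on the log2 scale in the model over both treatments.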

How the results depend on the processing

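The number of genes called in knockdown efficiency was 1 in the main comparison and 0 to 3 when 1 library pair was left out. It was 0 without replicate 1, 50 without replicate 2, 0 with 1 mean per time and 5 with DESeq2. The cause was not tested, although fewer ratios enter the fits by replicate. The fit with 1 mean per time did not average the replicates. It kept each ratio, gave each time its own mean and took its error from the spread between replicates of a time. With it the BC009321 difference was 1.54, as in the main comparison. The calls there were 3838 in total RNA and 2533 in footprints. Without replicate 1, where the shallow library is 1 of 3 late ones, the calls were 790 in total RNA and 580 in footprints, against 3547 and 2298. Leaving out single pairs gave 3044 to 4447 in total RNA, the highest without CT18 of replicate 2, and 1855 to 2472 in footprints. In knockdown cells the replicate numbers did not clearly pair the samples. The differences between replicates at each time correlated from −0.22 to 0.16 in efficiency over 15 pairs of times. Of these pairs 3 were over 0.1. In total RNA the range was −0.11 to 0.28. Pairing in wild-type cells was not tested. With a replicate block the calls were 1 in knockdown efficiency, 3554 in total RNA, 2243 in footprints and 0 in the middle hours, 43 in the difference between treatments (1 without the block, with BC009321, INCENP, RPL29, RPL31 and NACA among the genes gained, at adjusted p of 0.00214, 0.0199, 0.0242, 0.0312 and 0.0158) and 135 in wild-type efficiency (60 without). The difference between treatments gave 0 with median-ratio scaling, 17 without replicate 1 and 0 without replicate 2. The middle hours gave 0 under each alternative run. For knockdown efficiency, BC009321, the 1 gene called in the main comparison, kept its direction in each alternative (1.32 to 1.66). Some named genes that were not called changed sign between alternatives, such as EGR1 (−0.61 to 0.59) and PER1 (−0.52 to 0.28). Genes with few footprints had the widest intervals.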
